A study of Mus musculus with 18 samples.

Results

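The genes described here were the 8 myosin heavy chain genes Myh1, Myh2, Myh3, Myh4, Myh7, Myh7b, Myh8 and Myh13 in 2 leg muscles of mice. They were chosen by name, by matching the Ensembl identifier of each counted exon to a gene symbol, and they are 8 of the 46725 genes counted. The rule itself uses no measured level, although earlier results of these data were known when it was set, and all 8 passed the filter on low counts in both muscles. The study asked how an antisense oligonucleotide changes gene expression in the muscles of HSA-LR mice, a model of myotonic dystrophy, and sequenced polyA-selected RNA with a stranded kit. The 3 groups were WT mice, HSA-LR mice listed as untreated, and HSA-LR mice given Pip6a-PMO (called treated mice below), with 3 mice in each group, an FVB background and an age of 20 weeks throughout. HSA-LR mice carry a human skeletal actin transgene with an expanded CTG repeat, which is expressed in skeletal muscle, so the model is limited to that tissue. Pip6a-PMO is a morpholino oligomer against the CUG repeat, joined to a cell-penetrating peptide. The treatment note speaks of an intravenous injection of 160 µL of Pip6a-PMO or saline, and the dose for the sequenced mice is not given in the sources used here.

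Gastrocnemius and quadriceps libraries of a group with the same replicate number were taken as the same mouse. There were 18 libraries in all, with totals of 98916844 to 143135976 counts (median 121352724). All 8 skeletal muscle markers were found in every library, at a summed level of 124500 to 167500 CPM (the usual count unit scaled to the library total). The summed level of Y-linked genes went against the labels for 2 WT mice. It was 154 CPM in the gastrocnemius and 181.5 CPM in the quadriceps of mouse 2, which is labelled female, and 1.146 and 1.43 CPM in those of mouse 3, which is labelled male. Where 1 of the 8 genes was called between HSA-LR and WT mice, its change is therefore also given without each of these mice. Changes of shares, of uncalled genes and of genes outside the 8 are not given this way.

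Myosin heavy chains are the motor proteins of the thick filament, and the chain a fiber makes sets much of its speed of contraction. Adult limb muscle uses a slow chain (Myh7, type I fibers) and fast chains (Myh2 in IIA, Myh1 in IIX and Myh4 in IIB fibers), of which the IIA fibers are the more oxidative and the IIB fibers the more glycolytic. Myh3 and Myh8 encode the embryonic and the perinatal chain, which developing and regenerating fibers make, Myh13 encodes the chain of eye and laryngeal muscles, and Myh7b is an ancient relative that carries a microRNA in an intron.

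The fast and developmental chains lie side by side on chromosome 11 of GRCm38 on the plus strand, in the order Myh3 (chr11:67078300-67102291), Myh2 (chr11:67171027-67197517), Myh1 (chr11:67200052-67224575), Myh4 (chr11:67238029-67260446), Myh8 (chr11:67277124-67308634) and Myh13 (chr11:67321658-67371586). Myh7b lies apart on the plus strand of chr2:155611212-155634307, and Myh7 on the minus strand of chr14:54970684-54994626. The coding sequences of the neighbours were alike, with 91.0% identity between Myh1 and Myh2, 90.1% between Myh1 and Myh4 and 87.9% between Myh4 and Myh8, whereas Myh7b was 67.8% to 71.7% identical to the others. This bears on the counts, because a read from one gene can be placed on another where they share sequence. Of all 50-base windows along the mRNA, 26.7% in Myh1, 26.9% in Myh2, 18.9% in Myh4 and 21.4% in Myh8 were identical to a stretch of another myosin heavy chain, against 0% in Myh7b. The windows of Myh7 that were shared (22.2%) included those common to the cardiac chain Myh6.

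A pair of stretches from annotated transcripts, with positions on GRCm38, shows where the genes cannot and can be told apart. The first stretch, of 30 coding bases on the plus strand, is identical in 4 genes and lies in bin 30 of Myh8 (a bin is a stretch of exon that was counted on its own, numbered 5′ to 3′).
Myh1, chr11:67213644-67213673: gcccaccagcagaccctggatgacctgcag
Myh2, chr11:67188743-67188772: gcccaccagcagaccctggatgacctgcag
Myh4, chr11:67252263-67252292: gcccaccagcagaccctggatgacctgcag
Myh8, chr11:67297527-67297556: gcccaccagcagaccctggatgacctgcag

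The other stretch is the one that differs most among the same 4 genes, and capitals mark the bases that differ from Myh4.
Myh4, chr11:67248721-67248750: tttcctattttctgggggacaagctgcgga
Myh1, chr11:67209128-67209157: ttAcctCttCtctggggCaGCagcAgcTgC
Myh2, chr11:67181310-67181339: ttATctCttCtctggggCacaaActgcTga
Myh8, chr11:67289802-67289831: CAGcctCttttcCACATACGCTAGtgcTga

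Of these 30 bases, Myh8 differed from Myh4 at 17, Myh1 at 9 and Myh2 at 7. Because of the shared stretches, each gene was also measured over distinct bins, those with no 50-base window within 2 mismatches of another myosin heavy chain. They were 6 bins of 713 bases in Myh8, 9 bins of 490 bases in Myh1, 9 bins of 614 bases in Myh2 and 10 bins of 776 bases in Myh4. This measure was added after the data were seen.

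Summed over the 8 genes, the family accounted for 4.98% to 7.1% of a library. Levels of different genes were compared per kilobase of exon bins. In the gastrocnemius of WT mice, Myh4 stood at 8180 ± 1750 CPM per kb (SD, n = 3 here and below), Myh1 at 682 ± 352, Myh2 at 382 ± 247 and Myh7 at 106 ± 36. The 4 remaining genes were far lower, with Myh7b at 2.44 ± 1.31 CPM per kb, Myh3 at 0.737 ± 0.338, Myh8 at 0.588 ± 0.171 and Myh13 at 0.0425 ± 0.0272. Neighbours in this order whose libraries overlapped were Myh1 and Myh2, Myh2 and Myh7, and Myh3 and Myh8. The exon bins of Myh8 hold 11772 bases and its coding transcript 6149, so its place in this order rests on the length used. Per kb of the longest coding transcript, Myh8 stood at 1.13 ± 0.327 CPM, above Myh3 at 0.74 ± 0.339, with overlap. In the quadriceps of WT mice, Myh4 (8640 ± 1540 CPM per kb), Myh1 (748 ± 165) and Myh2 (211 ± 57.1) kept that order without overlap, whereas Myh7 stood at 4.44 ± 5.44 CPM per kb. Below it came Myh7b at 0.774 ± 0.275 CPM per kb, Myh8 at 0.522 ± 0.0663, Myh3 at 0.375 ± 0.126 and Myh13 at 0.0504 ± 0.0273, of which Myh7b overlapped with Myh7 and Myh3 with Myh8. Per kb of transcript this order turned as well, with Myh8 at 0.999 ± 0.127 CPM and Myh7b at 0.833 ± 0.296, whose libraries overlapped.

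**Figure D1:**
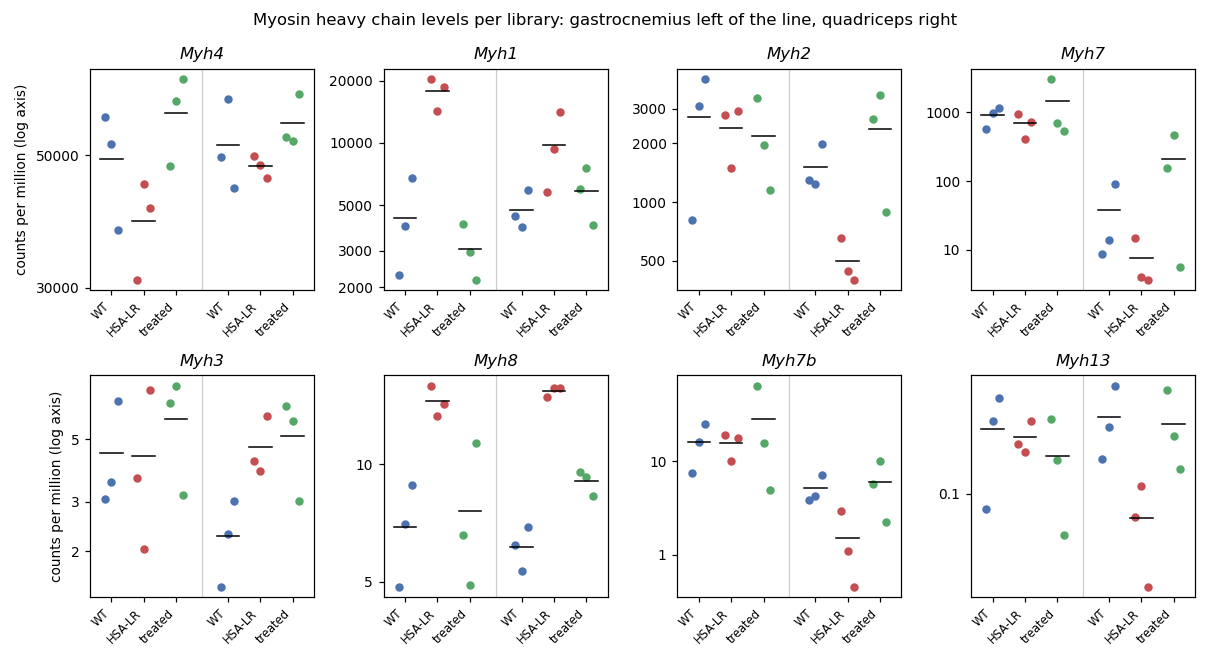
Level of each gene in each library in CPM on a log axis, for WT, HSA-LR and treated mice, with the 3 gastrocnemius groups left and the 3 quadriceps groups right of the gray line. Points are mice 1 to 3 from left to right and bars are group means. All 3 HSA-LR gastrocnemius libraries of Myh1 (14220 to 20430 CPM) lie above all others in that muscle.

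Differences between HSA-LR and WT mice were tested first in the gastrocnemius. The IIX chain Myh1 was higher in HSA-LR mice. The perinatal chain Myh8, at a far lower level, was called over all its bins and not over its distinct bins. The adult IIB and IIA chains, the slow chain and the embryonic chain did not pass the test. With edgeR's quasi-likelihood test and Benjamini-Hochberg adjustment over all genes, the threshold for a call was an adjusted P of 0.1, and 2 of the 8 genes were called, beside 15.5% of all genes tested.

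Myh1 measured 2307, 3952 and 6732 CPM in WT mice 1, 2 and 3, and 20430, 14220 and 18580 CPM in HSA-LR mice 1, 2 and 3 (mice are given in this order throughout). Every HSA-LR library lay above every WT library. The log2 FC was 1.97 ± 0.353 (SE, adjusted P = 0.00908), it was 1.96 ± 0.366 (adjusted P = 0.0108) over the distinct bins, and the call held in all 9 fits that left out 1 mouse. Without WT mouse 2 the log2 FC was 1.90 (adjusted P = 0.0426), and without WT mouse 3 it was 2.42 (adjusted P = 0.00263). In whole muscle, more fibers of a type and more RNA per fiber give the same count and cannot be told apart.

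Myh8 measured 4.854, 7.042 and 8.866 CPM in WT mice and 15.91, 13.26 and 14.29 CPM in HSA-LR mice. The groups did not overlap, with a log2 FC of 0.99 ± 0.312 (adjusted P = 0.0782). Over the distinct bins, which held 23, 36 and 59 counts in WT mice and 91, 66 and 61 in HSA-LR mice, it was 1.0 ± 0.484 and was not called (adjusted P = 0.24). Bins 43 and 44 have 33.6% and 1.3% of their windows shared. Together they held 124, 384 and 408 counts in WT, 1023, 637 and 870 in HSA-LR and 371, 117 and 155 in treated mice. The WT and HSA-LR mice ranked here as they did for Myh1, and the treated mice did not. Myh7 and Myh7b ranked the WT and HSA-LR mice in the same way, so these ranks do not single out Myh1. Without these 2 bins Myh8 measured 3.856, 4.277 and 6.015 CPM in WT and 7.625, 8.113 and 6.752 CPM in HSA-LR mice, and was not called (log2 FC 0.59 ± 0.364, adjusted P = 0.358). The call was also lost without WT mouse 1 or 2 (adjusted P = 0.174 without mouse 2) or any of the HSA-LR mice, and held without WT mouse 3 (log2 FC 1.20, adjusted P = 0.0704).

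Myh4, the main chain of both muscles, measured 58030, 52150 and 37540 CPM in WT mice and 30920, 44750 and 40760 CPM in HSA-LR mice. The libraries overlapped, and the log2 FC was -0.42 ± 0.236 (adjusted P = 0.31). Myh2 measured 808.5, 3106 and 4272 CPM in WT mice and 2790, 1492 and 2910 CPM in HSA-LR mice (adjusted P = 0.826). Its WT libraries were the more spread, with mouse 1 lowest. Myh7, at 572.1, 993.7 and 1178 CPM in WT mice and 955.6, 409.5 and 735.4 CPM in HSA-LR mice, overlapped as well (adjusted P = 0.691), as did Myh3, Myh7b and Myh13 (log2 FC -0.10, -0.12 and -0.27).

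The make-up of the family was read as the share of each gene in the summed CPM per kb of all 8. Myh1 made up 7.69% ± 4.95 of the family in the gastrocnemius of WT mice and 29.2% ± 6.9 in that of HSA-LR mice. The share of Myh4 was 86.8% ± 8.59 in WT mice and 66.4% ± 8.44 in HSA-LR mice. For both genes the groups did not overlap, with the highest WT share of Myh1 at 13.18% and the lowest HSA-LR share at 22.52%, and the exact permutation test gave P = 0.1 for each (adjusted P = 0.343 over 48 comparisons). With 3 mice against 3, 0.1 is the smallest P this test allows. The family as a whole took 5.72% of counts in WT mice and 5.97% in HSA-LR mice.

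**Figure D2:**
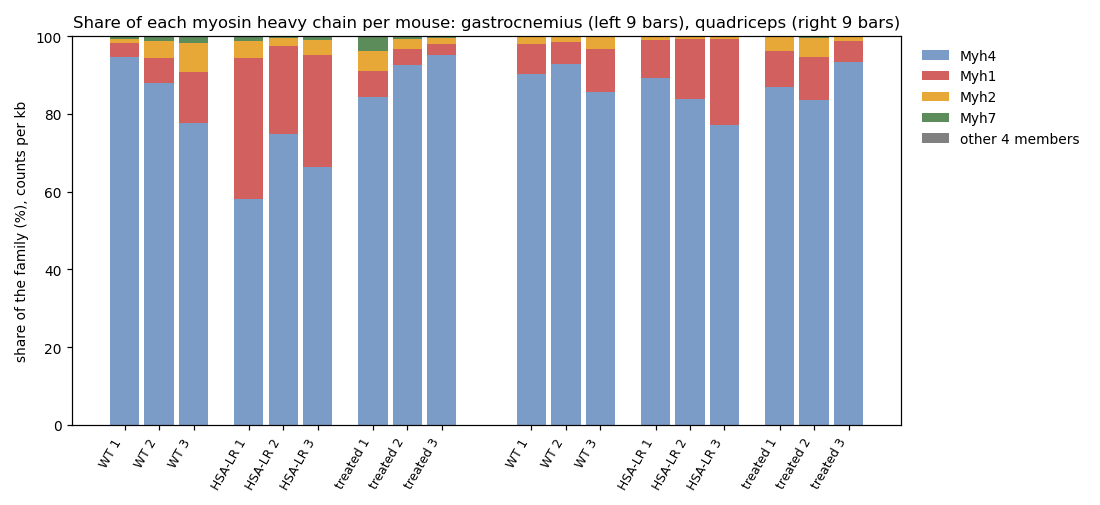
Share of each gene in the myosin heavy chain family in percent, from counts per kb of exon bins, stacked for each mouse, with the gastrocnemius in the left 9 bars and the quadriceps in the right 9 bars. The share of Myh1 averages 29.2% in HSA-LR gastrocnemius, against 7.69% in WT and 4.63% in treated mice.

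Treated and HSA-LR mice were compared next in the gastrocnemius. Myh1 was lower and Myh4 was higher in treated mice, 2 of the 8 genes called beside 10% of all genes. Myh1 measured 4058, 2979 and 2170 CPM in treated mice, and each of these lay below every HSA-LR library. This was a log2 FC of -2.38 ± 0.358 (adjusted P = 0.00871), -2.43 ± 0.372 over the distinct bins (adjusted P = 0.00936), and the call held in all 9 fits that left out 1 mouse.

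Myh4 measured 47920, 61720 and 67170 CPM in treated mice, all above the HSA-LR libraries. The log2 FC was 0.78 ± 0.237 (adjusted P = 0.0949), close to the threshold. It was 0.63 ± 0.225 over the distinct bins (adjusted P = 0.143), and the call was lost without WT mouse 2, any HSA-LR mouse, or treated mouse 2 or 3. The share of Myh4 in the family was 90.7% ± 5.7 in treated mice, 24.2 percentage points above HSA-LR mice, and that of Myh1 was 4.63% ± 1.95, a difference of -24.5 points (exact permutation P = 0.1 for each, the smallest possible).

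Myh8 measured 6.581, 4.914 and 11.34 CPM in treated mice, all below the HSA-LR libraries, and was not called (log2 FC -0.75 ± 0.31, adjusted P = 0.196). Its distinct bins held 48, 29 and 90 counts there, and the last of these lay inside the HSA-LR range. Without bins 43 and 44 the log2 FC was -0.15 ± 0.363 (adjusted P = 0.84). Myh7 measured 3100, 699 and 530.2 CPM in treated mice. Treated mouse 1 was the highest of all 18 libraries for Myh7 and for Myh7b (64.63 CPM), and its summed slow fiber program, 12 genes without myoglobin, was 14550 CPM against 2138 to 6527 CPM in the 6 WT and HSA-LR gastrocnemius libraries. Heart markers, of which 4 of 5 were found and up to 3 were at 0 in a library, summed to 245.1 CPM in the same library and to 28.3 to 96.56 CPM in the other gastrocnemius libraries. Nearly all of each sum was Myh6, at 245 CPM in that library and 28.28 to 96.49 CPM in the others. The other heart markers added next to nothing. The sequence of Myh6 overlaps with that of Myh7, and its part in the value of Myh7 was not tested. Against WT mice, none of the 8 genes was called in the gastrocnemius of treated mice, where 1.04% of all genes were, and none of the 8 had an unadjusted P under 0.05 in edgeR or was called by DESeq2. The log2 FC was -0.42 ± 0.341 for Myh1 and 0.35 ± 0.236 for Myh4.

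**Figure D3:**
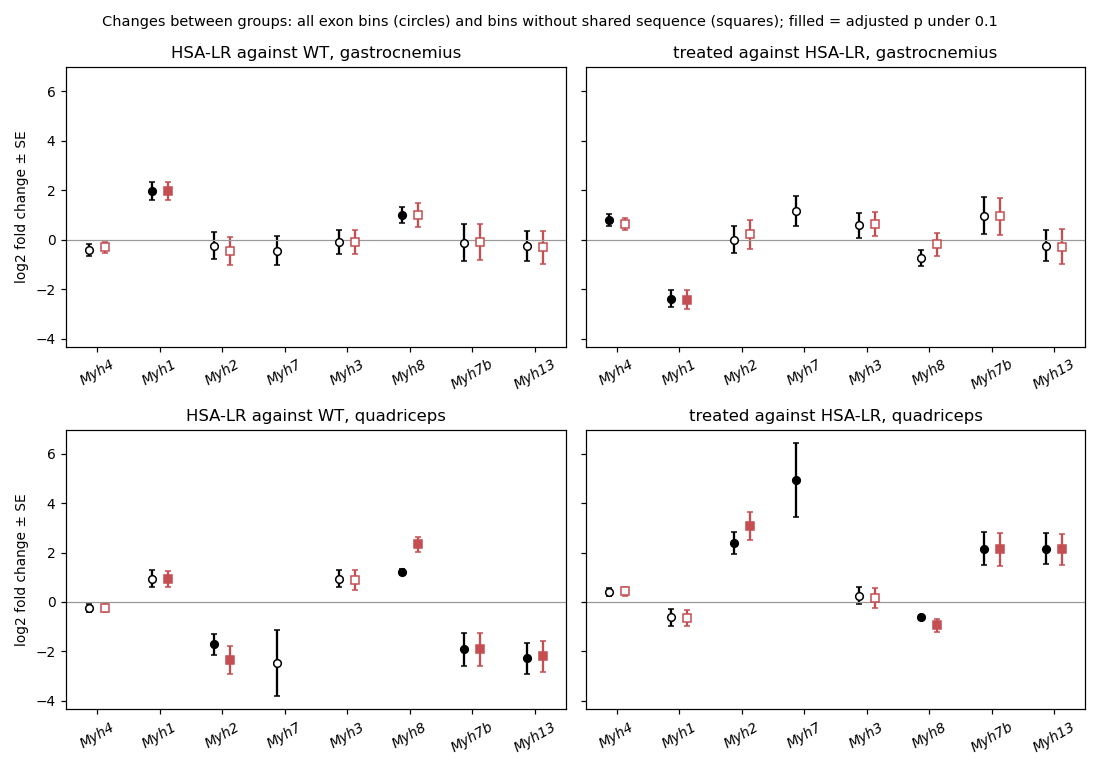
Change of each gene as log2 FC ± SE for HSA-LR against WT (left) and treated against HSA-LR mice (right), with the gastrocnemius above and the quadriceps below. Circles use all exon bins, squares the bins without shared sequence (not available for Myh7), and filled symbols have an adjusted P under 0.1. The change of Myh8 in HSA-LR quadriceps is 1.21 over all bins and 2.32 over the distinct bins.

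In the quadriceps, HSA-LR mice differed from WT mice in 4 of the 8 genes, beside 20.3% of all genes called. The IIA chain Myh2, Myh7b and the rare Myh13 were lower in HSA-LR mice and the perinatal chain Myh8 was higher. The IIX chain Myh1 missed the threshold, and so did the embryonic chain Myh3.

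Myh2 measured 1299, 1242 and 1974 CPM in WT mice and 655.4, 442 and 399.1 CPM in HSA-LR mice. The groups did not overlap, and the log2 FC was -1.72 ± 0.419 (adjusted P = 0.0273), with the call kept in all 9 fits without 1 mouse (-1.83, adjusted P = 0.05 without WT mouse 2, and -1.48, adjusted P = 0.0791 without WT mouse 3). Part of the Myh2 count moved the other way. Bin 25 of Myh2, in which 75.0% of windows were identical to another myosin heavy chain, held 8905, 7521 and 13922 counts in WT mice and 7574, 13475 and 13728 in HSA-LR mice. Bin 24 next to it held 4182, 4803 and 6812 counts in WT mice and 1559, 982 and 640 in HSA-LR mice. Bin 37, with 59.7% identical windows, held 5248, 4329 and 7622 counts in WT mice and 1941, 893 and 911 in HSA-LR mice. The HSA-LR libraries were thus lower in bin 24 and in the highly shared bin 37, and not in bin 25. In bin 25 they rank as the Myh1 levels of the same mice do (5784, 9349 and 14030 CPM). Over the distinct bins, with 17406, 18564 and 27653 counts in WT mice and 6655, 3838 and 2387 in HSA-LR mice, the log2 FC of Myh2 was -2.34 ± 0.553 (adjusted P = 0.024).

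Myh8 measured 6.205, 5.336 and 6.893 CPM in WT mice and 14.88, 15.69 and 15.71 CPM in HSA-LR mice. The HSA-LR libraries lay close together and well above the WT libraries. The log2 FC was 1.21 ± 0.109 (adjusted P = 0.000325), and the call held in all 9 fits without 1 mouse (1.13, adjusted P = 0.00172 without WT mouse 2, and 1.30, adjusted P = 0.000823 without WT mouse 3). Much of the WT count lay in a few bins. Bin 30, with 68.6% identical windows, held 121, 118 and 97 counts in WT mice and 95, 98 and 73 in HSA-LR mice. Bins 43 and 44 together held 392, 229 and 336 counts in WT mice and 334, 630 and 718 in HSA-LR mice, 36.3% to 55.4% and 22.7% to 38.5% of all Myh8 counts. The HSA-LR mice again ranked as for Myh1. The WT mice and the treated mice (281, 456 and 391 counts) did not. Without these 2 bins the log2 FC of Myh8 was 1.52 ± 0.164 (adjusted P = 0.000768). The distinct bins held 14, 17 and 29 counts in WT mice and 92, 123 and 106 in HSA-LR mice, 1.98% to 3.6% of all Myh8 counts in the former and 5.68% to 6.34% in the latter. Over these bins the log2 FC was 2.32 ± 0.29 (adjusted P = 0.00153). Satellite cell markers (5 genes, none at 0) summed to 46.39 to 60.09 CPM in WT and 65.9 to 71.39 CPM in HSA-LR quadriceps, macrophage markers (7 genes, none at 0) to 42.28 to 58.78 and 89.06 to 118.4 CPM, and fibroblast markers (3 of 5 found, none at 0) to 492 to 628.6 and 782.9 to 920.1 CPM. Other lists were lower in HSA-LR quadriceps without overlap. Skeletal muscle markers summed to 139000 to 146200 CPM in WT and 124500 to 131500 CPM in HSA-LR mice. Schwann cell and nerve markers summed to 83.96 to 110.6 and 48.38 to 78.29 CPM, and heart markers to 4.266 to 10.99 and 0.6232 to 2.588 CPM. Adipocyte, endothelial, smooth muscle and erythroid markers overlapped. The part of these lists in the change of Myh8 was not tested.

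Myh7b measured 3.888, 4.286 and 7.227 CPM in WT mice and 2.982, 1.108 and 0.4548 CPM in HSA-LR mice, without overlap (log2 FC -1.91 ± 0.663, adjusted P = 0.0919). Its call was lost when any of the WT mice was left out (-2.02, adjusted P = 0.138 without mouse 2, and -1.59, adjusted P = 0.22 without mouse 3) and without HSA-LR mouse 2 or 3 or treated mouse 1. Myh13 held 19, 32 and 58 counts in WT mice and 7, 14 and 3 in HSA-LR mice, so that counting error weighed on it (log2 FC -2.27 ± 0.625, adjusted P = 0.0431). Its call was lost without WT mouse 3 (-1.78, adjusted P = 0.132) or HSA-LR mouse 1 or 3, and held without WT mouse 2 (-2.35, adjusted P = 0.0788).

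Myh1 measured 4413, 3910 and 5925 CPM in WT and 5784, 9349 and 14030 CPM in HSA-LR quadriceps. HSA-LR mouse 1 lay inside the WT range, and the log2 FC of 0.94 ± 0.341 was not called (adjusted P = 0.105), although it was called over the distinct bins (0.93 ± 0.324, adjusted P = 0.092). Myh3 measured 1.492, 2.304 and 3.014 CPM in WT mice and 4.165, 3.848 and 6.03 CPM in HSA-LR mice. It did not overlap and was not called either (log2 FC 0.94 ± 0.344, adjusted P = 0.108). Myh4, at 49700, 62140 and 44050 CPM in WT mice and 49900, 48160 and 45870 CPM in HSA-LR mice, overlapped (adjusted P = 0.397). Myh7 measured 8.751, 13.74 and 92.36 CPM in WT mice and 15.02, 4.083 and 3.638 CPM in HSA-LR mice, also with overlap (adjusted P = 0.271).

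By share, Myh2 made up 2.26% ± 0.869 of the family in the quadriceps of WT mice and 0.734% ± 0.224 in that of HSA-LR mice, without overlap (exact permutation P = 0.1, the smallest possible). Myh1 made up 8.01% ± 2.71 in WT and 15.8% ± 6.28 in HSA-LR mice and Myh4 89.6% ± 3.64 and 83.4% ± 6.07, both with overlap (exact permutation P = 0.2 for each).

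In the quadriceps of treated against HSA-LR mice, 5 of the 8 genes were called, beside 13.8% of all genes. Myh2, Myh7, Myh7b and Myh13 were higher and Myh8 was lower in treated mice. Myh2 measured 2660, 3540 and 889.4 CPM in treated mice, all above the HSA-LR libraries, with mouse 3 lowest. Their log2 FC was 2.39 ± 0.428 (adjusted P = 0.0168), or 3.08 ± 0.569 over the distinct bins (adjusted P = 0.0184), and the call held in all 9 fits that left out 1 mouse. Myh8 measured 9.531, 9.288 and 8.308 CPM in treated mice, below every HSA-LR and above every WT library. Its log2 FC was -0.62 ± 0.108 (adjusted P = 0.0154), called in each of those fits, and -0.95 ± 0.269 over the distinct bins, which held 61, 46 and 51 counts (adjusted P = 0.0689). Without bins 43 and 44 it was -0.67 ± 0.16 (adjusted P = 0.0425).

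The slow chain was uneven among treated mice. Myh7 measured 157.8, 471.4 and 5.569 CPM there, so that mice 1 and 2 lay above all HSA-LR libraries and mouse 3 among them (log2 FC 4.94 ± 1.5, adjusted P = 0.0803). Myh7b followed with 5.678, 10.09 and 2.249 CPM, of which mouse 3 again lay inside the HSA-LR range (log2 FC 2.16 ± 0.667, adjusted P = 0.0842). The summed slow fiber program without myoglobin was 1242, 2435 and 197.4 CPM in the same mice, in the same order as Myh7, against 310.1 to 414.2 CPM in HSA-LR mice. Its part in the values of Myh7 and Myh7b was not tested. Myh13 held 53, 28 and 19 counts in treated mice, above the HSA-LR libraries (log2 FC 2.15 ± 0.626, adjusted P = 0.0736).

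These last calls rested on few mice. The call of Myh7 was lost without any HSA-LR mouse or treated mouse 1 or 2, as was that of Myh13, and the call of Myh7b without WT mouse 2, HSA-LR mouse 2 or 3, or treated mouse 1 or 2. Against WT mice, Myh8 was called in the quadriceps of treated mice (log2 FC 0.60 ± 0.109, adjusted P = 0.0575; 1.38 ± 0.29 over the distinct bins, adjusted P = 0.086), 1 of the 8 genes beside 1.41% of all genes. This call was lost without mouse 1 or 2 of any of the 3 groups. Myh3, at 6.526, 5.784 and 3.022 CPM in treated mice, lay above all WT libraries and was not called (log2 FC 1.20 ± 0.345, adjusted P = 0.209).

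The quadriceps was then compared with the gastrocnemius of the same mice, within each group. Slow chains were lower in the quadriceps. The share of Myh7 in the family was 1.24% in the gastrocnemius and 0.0982% in the quadriceps on average, lower in the quadriceps of 9 of 9 mice by 1.14 ± 1.03 points (SD over mice, exact sign permutation P = 0.00391, adjusted P = 0.0156 over the 8 genes). The share of Myh7b was also lower in 9 of 9 mice (0.0319% and 0.00645%, exact permutation P = 0.00391, adjusted P = 0.0156). Myh2 was lower in 7 of 9 mice (exact permutation P = 0.0703), and Myh4 was higher in 6 of 9 (81.3% and 87%, exact permutation P = 0.168).

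At the level of counts, none of the 8 genes was called between the muscles in WT mice (0.297% of all genes), 3 were called in HSA-LR mice (2.21%) and none in treated mice (1.47%). In WT and treated mice 2 and 3 of the genes had an unadjusted P under 0.05 in edgeR, and DESeq2 called 1 in each. The 3 genes of HSA-LR mice were all lower in the quadriceps, Myh2 with a log2 FC of -2.31 ± 0.554 (adjusted P = 0.0675), Myh7 of -6.58 ± 1.38 (adjusted P = 0.0385) and Myh7b of -3.44 ± 0.838 (adjusted P = 0.0707). Since both muscles came from the same mouse, the fit was repeated with the mouse as a block. It then called 2 genes in WT mice, Myh7 (-5.31 ± 1.04, adjusted P = 0.0561) and Myh3 (-0.93 ± 0.203, adjusted P = 0.083), 5 genes in HSA-LR mice, with Myh1 (-0.98 ± 0.284, adjusted P = 0.0995) and Myh13 (-1.79 ± 0.464, adjusted P = 0.0718) beside the former 3, and Myh7 in treated mice (-3.96 ± 1.13, adjusted P = 0.0797). Without the block, the calls of Myh2 and Myh7b were lost without WT mouse 2 or any HSA-LR mouse, and that of Myh7 without any HSA-LR mouse.

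The change of a gene was not shown to differ between the muscles. The interaction of muscle and group gave 0 called genes of 16167 with edgeR both for HSA-LR against WT mice (710 at an unadjusted P under 0.05) and for treated against HSA-LR mice (1271), of which 1 and 4 were among the 8, and DESeq2 called none of the 8 either. Myh1, which rose by 1.97 on the log2 scale in the gastrocnemius, had an interaction of -1.04 ± 0.519 (adjusted P = 1), and Myh2 one of -1.48 ± 0.751 (adjusted P = 1). That fit ignores that both muscles came from the same mice. With the mouse as a block, 5 of 16167 genes were called for HSA-LR against WT mice (1384 at an unadjusted P under 0.05) and 0 for treated against HSA-LR mice (2257), none of them among the 8. The interaction of Myh1 was then -1.24 ± 0.398 (adjusted P = 0.378) and 1.86 ± 0.398 (adjusted P = 0.218), and that of Myh2 -1.69 ± 0.519 (adjusted P = 0.358) and 2.27 ± 0.515 (adjusted P = 0.218). At an unadjusted P under 0.05, 5 of the 8 genes passed in the former comparison and 4 in the latter.

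Exon use inside the genes was tested by bin, as the change of a bin relative to its gene (edgeR's diffSpliceDGE). No bin of Myh13 had enough counts for the test, which thus covered 7 genes. In the gastrocnemius, 0 of 290 bins of the 7 genes were called between HSA-LR and WT mice (0.807% of all bins), between treated and HSA-LR mice (0.305%) or between treated and WT mice (0.0654%), while 2, 4 and 0 bins had an unadjusted P under 0.05 and limma's voom with diffSplice called 1, 3 and 0. In the quadriceps, 4 of 261 bins were called between HSA-LR and WT mice (0.284% of all bins), and all 4 belonged to Myh8. Bin 30 (chr11:67297446-67297622, coding) fell by 1.60 on the log2 scale relative to the gene (adjusted P = 4.25e-05) and bin 31 (chr11:67297702-67297847, coding) by 1.54 (adjusted P = 0.00326). Bins 27 and 40, both coding, rose by 2.01 (adjusted P = 0.0749) and 1.51 (adjusted P = 0.0855).

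These bins differ in how much of them is shared with other genes. Bin 30 of Myh8 holds the stretch printed above that is identical in Myh1, Myh2, Myh4 and Myh8, 68.6% of its windows are shared, and its counts did not rise in HSA-LR mice. Bin 31 has 32.3% of its windows shared, with Myh4, and bin 40 has 22.1%. Bin 27, with 27.9% of windows shared, held 0, 3 and 10 counts in WT mice and 41, 39 and 49 in HSA-LR mice. Bin 36 (20.7% shared) held 1, 4 and 12 counts in WT, 46, 41 and 47 in HSA-LR and 29, 20 and 21 in treated mice. Within 2 mismatches, 80.5% of its windows are shared, against 84.5% in bin 30. Bin 17 (58.8% shared) held 0, 2 and 3 counts in WT and 8, 22 and 16 in HSA-LR mice. Bin 18 (57.7% shared) held 0, 4 and 8 counts in WT and 14, 23 and 16 in HSA-LR mice. Bin 29 (51.7% shared) held 46, 26 and 30 counts in WT and 47, 51 and 41 in HSA-LR mice. Bins 17, 18, 29 and 36 are named after their counts were seen. Whether shared sequence goes with the change of a bin was not tested over all bins of Myh8. A bin whose count stays level while the gene rises falls relative to the gene, so that exon use and the placement of reads cannot be told apart in these calls. No bin was called in treated against HSA-LR (0.168% of all bins) or treated against WT quadriceps (0.0353%), where 4 and 8 bins had an unadjusted P under 0.05 and limma's voom with diffSplice called 3 and 0.

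**Figure D4:**
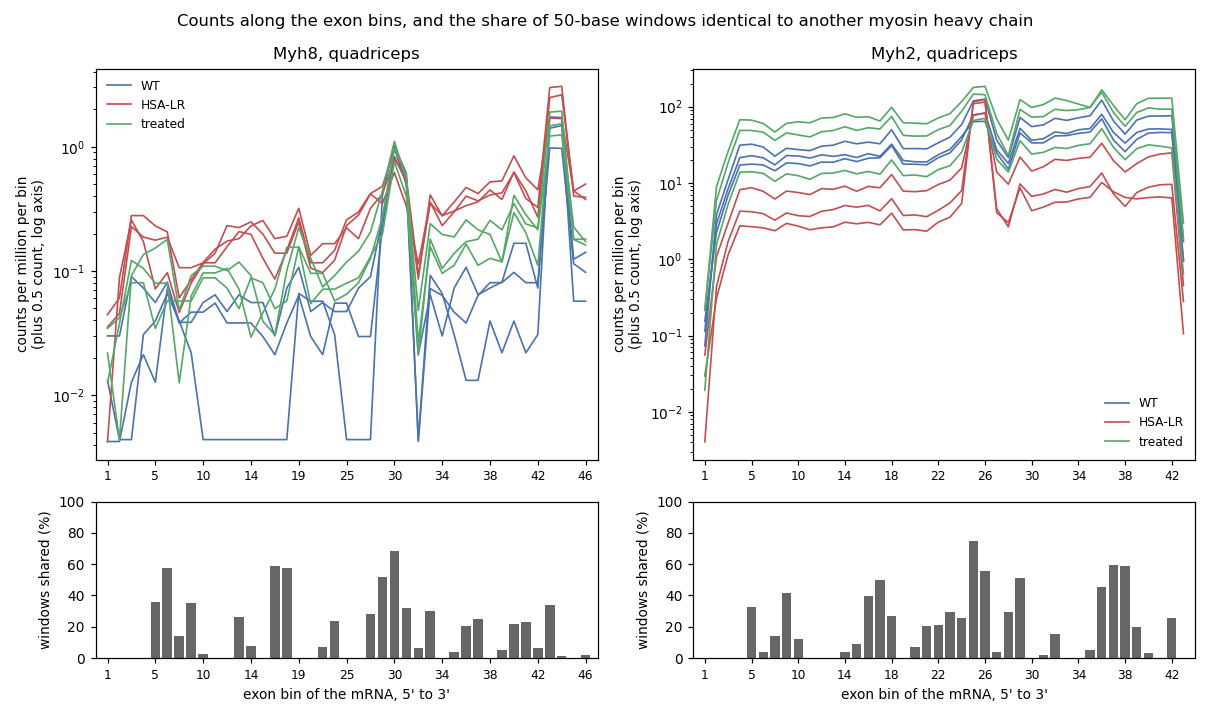
Level in CPM per exon bin of Myh8 and Myh2 in the quadriceps (log axis, 1 line per mouse, 0.5 counts added), above the percent of 50-base windows of each bin that are identical to another myosin heavy chain. In Myh8 the lines of the 3 groups come together at bin 30, where 68.6% of windows are shared, and in Myh2 the HSA-LR lines climb to the others at bins 25 and 26.

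Genes that work with the chains were counted in fixed lists, with the median log2 FC of all genes at -0.01 in the gastrocnemius and 0.005 in the quadriceps for HSA-LR against WT mice. Of all genes, 8.60% were higher and 6.94% lower in the gastrocnemius of HSA-LR mice, and 11% and 9.31% in the quadriceps, and the counts below are to be read against these. Of 13 genes of the slow fiber program, 1 was higher and 0 lower in each muscle (7.69% called against 15.5% and 20.3% of all genes, medians -0.54 and -0.80). The 1 gene was Mb, myoglobin, an oxygen store of all oxidative fibers and not of slow fibers alone (log2 FC 1.41 in the gastrocnemius, adjusted P = 0.0334, and 1.05 in the quadriceps, adjusted P = 0.0288), and the slow light chain gene Myl6b was next (-1.15, adjusted P = 0.107, and 0.05, adjusted P = 0.832). Of 13 genes of the fast fiber program, 1 was higher and 1 lower in the gastrocnemius and 1 higher and 5 lower in the quadriceps (15.4% and 46.2% called, medians -0.30 and -0.29), so that the count in the gastrocnemius was at the level of all genes. The calcium pump gene of fast fibers, Atp2a1, was lower in both muscles (-0.47, adjusted P = 0.0491, and -0.46, adjusted P = 0.0747), and Myom2, an M-band protein, was higher (0.41, adjusted P = 0.0559, and 0.57, adjusted P = 0.0228).

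Of 28 tested regulators of fiber type, 6 were higher and 2 lower in the gastrocnemius and 3 higher and 2 lower in the quadriceps (28.6% and 17.9% called, medians 0.08 and -0.04), the latter below the 20.3% of all genes. The transcription factor genes Tead4 (1.71, adjusted P = 0.000336, and 1.84, adjusted P = 0.000234) and Nfatc2 (1.57, adjusted P = 0.000475, and 1.72, adjusted P = 0.00309) were higher in both muscles, as was Mef2c (0.61, adjusted P = 0.0133, and 0.54, adjusted P = 0.027). Maf, a large Maf factor, was lower (-0.87, adjusted P = 0.00957, and -0.61, adjusted P = 0.0835). Of 15 developmental and regenerating fiber genes, to which Myh8 and Myh3 were not counted, 4 were higher and 2 lower in the gastrocnemius and 7 higher and 2 lower in the quadriceps (40% and 60% called, medians 0.30 and 0.70). The transcription factor gene Runx1 and the muscle determination gene Myod1 were higher in both, Myod1 by 0.78 (adjusted P = 0.033) and 0.87 (adjusted P = 0.0382) and Runx1 by more (1.53, adjusted P = 0.00103, and 1.91, adjusted P = 0.000678), as was Chrna1, an acetylcholine receptor subunit (1.49, adjusted P = 0.00571, and 0.43, adjusted P = 0.0959). In contrast, Actc1, the cardiac actin gene that developing fibers use, was lower in both (-4.19, adjusted P = 0.0112, and -3.38, adjusted P = 0.00367). Its WT gastrocnemius libraries were uneven, at 35.17, 49.17 and 290.7 CPM in mice 1, 2 and 3.

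Of 17 tested genes for the folding, assembly and turnover of myosin, 2 were higher and 2 lower in the gastrocnemius and 1 higher and 3 lower in the quadriceps (23.5% called in each, against 15.5% and 20.3% of all genes, medians -0.06 and -0.14). Mybph, a myosin-binding protein gene, was higher (2.38, adjusted P = 0.0633, and 1.21, adjusted P = 0.0345), and Trim55, which encodes a ubiquitin ligase of the sarcomere, was lower (-0.36, adjusted P = 0.0116, and -0.42, adjusted P = 0.0873). Mybph was uneven in WT gastrocnemius, at 38.93, 37.32 and 280.9 CPM in mice 1, 2 and 3. Ppp1r12b, a subunit of myosin phosphatase, was higher in the gastrocnemius (0.89, adjusted P = 0.0284) and was not called in the quadriceps (0.42, adjusted P = 0.265). Of 5 other myosin heavy chains, 0 were called in the gastrocnemius by edgeR (the nearest were the nonmuscle chains Myh14, at -0.13 with adjusted P = 0.332, and Myh9, at -0.13 with adjusted P = 0.406), and 1, the smooth muscle chain Myh11, was lower in the quadriceps (-0.57, adjusted P = 0.0194) and is named here after its value was seen. In treated against HSA-LR quadriceps, 5 of 13 slow program genes were higher and 0 lower (38.5% called, against 13.8% of all genes, of which 6.54% were higher and 7.22% lower, median 1.65), namely Tnnc1, Tnnt1, Myl2, Tpm3 and Atp2a2 (log2 FC 4.32, 4.17, 3.92, 2.17 and 1.60), named here after their values were seen. In the gastrocnemius of the same groups 0 were higher and 1, Mb, was lower (-1.11, adjusted P = 0.0991; median 1.08), while 4.49% of all genes were higher and 5.53% lower. The rise in the quadriceps was uneven among mice. There the program without myoglobin summed to 1242, 2435 and 197.4 CPM in treated mice 1, 2 and 3. Mouse 3 lay below every HSA-LR library (310.1 to 414.2 CPM).

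The genes most like each chain over the 18 libraries, by Pearson's r of log2 CPM, are given as a description, since the libraries share groups and mice. Myh7 was closest to the slow troponin genes Tnnc1 (r = 0.998), Tnnt1 (r = 0.994) and Tnni1 (r = 0.991), Myh7b to Lgi1 (0.972), Myh6 (0.955) and Pdlim1 (0.944), and Myh2 to Bdh1 (0.942), Lrrc52 (0.936) and Ldhb (0.919). Myh4 was closest to 4921524J17Rik (0.923), Map2k1 (0.919) and Pgm1 (0.912), and Myh1 to Snap47 (0.92), Gm9903 (0.918) and Pde8a (0.907). Myh8 was closest to Gsdme (0.922), Cdcp1 (0.91) and Iqcc (0.907), Myh13 to Shroom4 (0.888), Gm10863 (0.881) and Armcx4 (0.877), and Myh3 to 6430548M08Rik (0.817), Tcf19 (0.813) and Sh3bp5l (0.798). Among the chains, r was 0.908 for Myh7 and Myh7b, 0.88 for Myh2 and Myh7b, 0.716 for Myh1 and Myh8 and -0.795 for Myh1 and Myh4. These values use all bins, shared ones included, and hold differences between groups. With group means taken out, Myh7 kept the same slow troponin genes and Myh7b kept Lgi1 (r = 0.932). None of the genes listed for the other chains stayed among their closest.

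The cluster on chromosome 11 also holds noncoding RNAs on the minus strand, which were looked at after their values were seen. 2310065F04Rik (chr11:67112461-67120080), a long noncoding RNA between Myh3 and Myh2, overlaps none of the chains. It measured 103.4, 98.73 and 86.76 CPM in WT, 45.48, 46 and 47.26 CPM in HSA-LR and 89.81, 95.56 and 109.3 CPM in treated gastrocnemius. HSA-LR libraries lay below all others, with a log2 FC of -1.14 ± 0.122 against WT (adjusted P = 0.000712) and of 1.26 ± 0.123 in treated against HSA-LR mice (adjusted P = 0.00165). In the quadriceps the corresponding log2 FC values were -1.31 ± 0.217 (adjusted P = 0.00563) and 1.07 ± 0.215 (adjusted P = 0.0247).

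The strands were largely kept apart in the counts, since in 431 pairs of bins that overlap on opposite strands and of which 1 is dense, the opposite strand held a median of 0.242% of the counts. It held under 1% in 323 of these pairs. The value was 1.43% for 9430073C21Rik and Myh2. For Myhas and Myh1 it was 0.167% to 1.36%, and 44.3% in a sparse bin of Myh1 with 2 bases of overlap. 9430073C21Rik (chr11:67195680-67199234) runs across the 3′ end of Myh2, and 1 of its bins lies between Myh2 and Myh1 outside their exons. That bin measured 0.2576, 0.4104 and 0.4262 CPM in WT, 2.982, 1.982 and 2.878 CPM in HSA-LR and 0.4393, 0.4263 and 0.2466 CPM in treated gastrocnemius, the same groups and muscle in which Myh1 was high. In the quadriceps the gene was not called (log2 FC 0.11 ± 0.304, adjusted P = 0.862). Over that bin alone the log2 FC of HSA-LR against WT gastrocnemius was 2.76 ± 0.279 (adjusted P = 0.000503). Myhas (chr11:67211256-67237573), antisense to the 3′ part of Myh1, was called higher in HSA-LR mice in both muscles over all its bins (log2 FC 1.14 ± 0.149, adjusted P = 0.00206, and 0.91 ± 0.226, adjusted P = 0.0291). Over its bins outside the exons of Myh1 the log2 FC was 0.39 ± 0.186 (adjusted P = 0.231) and 0.59 ± 0.268 (adjusted P = 0.189), and it was not called in either muscle.

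**Figure D5:**
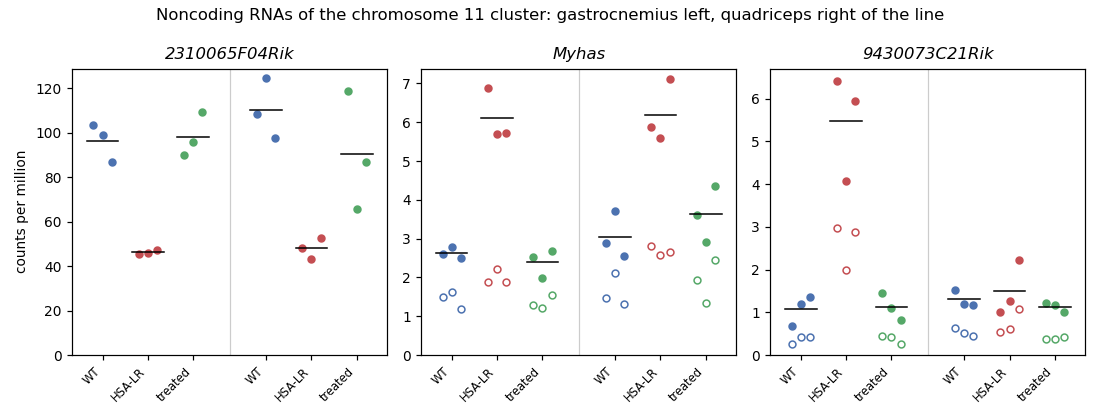
Level in CPM of 3 noncoding RNAs on the minus strand of the myosin heavy chain cluster in each library, gastrocnemius left and quadriceps right of the gray line, with bars at group means. Open circles are counts in bins outside the exons of the chains. 2310065F04Rik is at most 52.67 CPM in the 6 HSA-LR libraries and at least 65.78 CPM in the other 12.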

How the data were processed

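The authors deposited raw counts per exon bin for each library, with no normalization and no pooling, made on GRCm38 with CASAVA, HISAT and featureCounts 1.5.0 (submitters' processing notes). Entries naming no gene (2.815% to 4.139%) were left out. Bins were summed to genes, so a read pair spanning bins counts in each, and were placed with GENCODE M21, in which all 41211 genes of the same version had the deposited number of bins. Myh7 differed in version, so its length comes from a later model. Tests used edgeR 4.0.16 in R 4.3.3 (filterByExpr, minimum count 10, minimum total 15; TMM; glmQLFTest; Benjamini-Hochberg), with 9 libraries of a muscle per fit, or 18 between muscles, and limma 3.58.1 and DESeq2 1.42.0 as alternatives. Sequences were read from GENCODE M21 transcripts, with positions on GRCm38, and the coding sequences were aligned with MAFFT 7.526. The code was tested on simulated data. In that test, a changed bin also moved the relative change of other bins of its gene.

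The members and gene lists were chosen with earlier results of these data known. Named are the 8 genes, for each the 3 most correlated genes, and in each list the genes called in both muscles (at most 5) and at least the 2 smallest gastrocnemius P values. Genes outside the rule are said to be chosen later. Muscles were paired by replicate number, taken as the mouse. The paper states for the treated mice that both muscles came from the same animals. Deviations from group means of paired muscles correlated with a median r of 0.214 (range 0.063 to 0.511, 9 mice). For different mice the median was -0.09 (range -0.375 to 0.222), so the ranges overlapped. Values for different mice lean negative by construction, since deviations cancel out within a group. P values of edgeR set a change against the spread between libraries within groups, estimated jointly over all groups of a fit. The exact tests of shares compare 3 mice with 3 within a muscle, and use all 9 mice between muscles.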

Additional observations from a re-analysis of the deposited data

How the results depend on the processing

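The 17 calls of a gene were refitted 292 times under other settings. The direction was the same in 291 refits and the call was kept in 220. The calls of Myh1 in the gastrocnemius were kept in all settings. The largest bin of a gene means here the bin with the most counts, not the longest. The 1 reversal was Myh2 in HSA-LR against WT quadriceps, at 0.15 by its largest bin, bin 26, whose windows are 55.8% shared. The share of Myh2 then differed by 0.706 points in place of -1.53.

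The number of the 8 genes called changed as follows. In the gastrocnemius, HSA-LR against WT gave 1 over distinct bins, and treated against HSA-LR gave 1 with upper-quartile factors, with at least 10 counts in every library, over distinct bins or with the replicate block, and 4 by the largest bin. In the quadriceps, HSA-LR against WT gave 2 by the largest bin, treated against HSA-LR gave 2 by the largest bin or with the replicate block, and treated against WT gave 2 with DESeq2 and 0 with only the 2 groups, the replicate block or the largest bin. Between muscles, DESeq2 gave 1 in WT and 1 in treated mice, and the block by mouse gave 2, 5 and 1 in WT, HSA-LR and treated mice. Called bins, which cover 7 genes without Myh13, numbered 1 with voom or the block in HSA-LR against WT gastrocnemius, 3 with voom in treated against HSA-LR in either muscle, and 2 with the block and 0 with at least 10 counts per library in HSA-LR against WT quadriceps. Leaving out 1 mouse gave 1 to 2 genes in both gastrocnemius comparisons with calls, 2 to 6, 2 to 5 and 0 to 1 in the quadriceps, and 0 to 3 between muscles. It gave 0 to 2 bins in the gastrocnemius and 1 to 6 and 0 to 1 in the quadriceps. The cause of these changes was not tested.

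Mouse numbers shared across groups do not pair them (median r 0.0015, range -0.233 to 0.255). With 3 mice a group, exact tests of shares could not go below 0.1, and Myh13, at 3 to 59 counts, had the fewest counts. Without bins 43 and 44, the call of Myh8 in the gastrocnemius was lost (0.59, adjusted P = 0.358) and its 3 calls in the quadriceps were kept. Distinct bins, leaving out these 2 bins, transcript length, the antisense bins outside the chains and the list without Mb were added after the data were seen. Shares by the largest bin have no value for Myh7.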
